A study of Sus scrofa with 41 samples.

Results

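The genes described here are the zinc finger genes of the ZNF series that were expressed in the psoas major muscle of every pig of the study. They were chosen by measured values: a gene was taken when its pig Ensembl symbol was ZNF followed by a digit and when at least 5 read pairs were counted on it in every one of the 41 pigs. This gave 189 of the 243 ZNF genes with such a symbol, among 25880 genes in the files. Because the rule used the counts themselves, the presence of these genes in every pig is not a result, and they are called members below.

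The study sequenced polyadenylated RNA from the psoas major, the tenderloin muscle, of 13 Danbred Duroc and 28 Danbred Landrace boars, called Duroc and Landrace here, taken just after slaughter. All boars were fed ad libitum and differed in feed conversion ratio (FCR), the feed eaten per weight gained, so that a low value is an efficient pig. The Duroc pigs were 131 to 156 days old (median 148) with FCR from 1.83 to 2.18, and the Landrace pigs were 147 to 166 days old (median 154.5) with FCR from 1.92 to 2.25. RIN, the RNA integrity number, ran from 7.0 to 8.8 in Duroc and from 6.5 to 8.3 in Landrace. Age, FCR and RIN thus all differed between the breeds, and no group was treated.

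Between 22188911 and 25954816 read pairs per pig fell on genes. The pigs came in 5 batches as the labels number them; batch 1 held 1 Duroc pig and the others held both breeds. The library with the fewest counts of each breed, a Landrace pig of RIN 6.6 and a Duroc pig of RIN 7.0, also had the largest share of read pairs outside annotated genes, up to 16.2% against a median of 8.83%. No pair of the 820 pairs of libraries was alike within counting noise. The muscle markers stood high in every pig: ACTA1, skeletal muscle actin, held 106020 CPM on average (counts per 1000000 counts on genes, normalised as described below), and CKM, the muscle creatine kinase, held 25018.

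ZNF proteins carry repeats of a small fold in which cysteines and histidines hold a zinc ion, and strings of such fingers read DNA or RNA. Many also carry a KRAB domain, which binds TRIM28 and through it the histone methyltransferase SETDB1, and so silences transposable elements and genes. These KRAB genes lie in clusters of tandem duplicates. Other members do different work: ZNF207 serves the mitotic spindle, ZNF598 marks collided ribosomes, ZNF473 serves the 3′ ends of histone messages and ZNF326 couples transcription to splicing.

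Together the members held little of the muscle's RNA. Their counts summed to 4068 ± 725 per 1000000 counts on genes (SD, n = 41 pigs), with a lowest pig at 2128, a median of 4107 and a highest at 5231. ZNF106 and ZNF592 alone took 53.0% of all member counts, and without them the sum was 1916 on that scale on average. From here on, CPM means counts per 1000000 of the library size scaled by TMM, the trimmed mean of M-values, and it is a share of counts that is not divided by gene length.

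ZNF106, an RNA-binding zinc finger protein known from skeletal muscle and motor neurons, had the highest mean at 1201 ± 266 CPM. ZNF592, a partner of the chromatin reader ZMYND8, followed at 902 ± 202 CPM. ZNF358 stood at 204 ± 48.4 CPM. These 3 were the only members over 100 CPM.

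The next 5 were ZNF768 at 90.7 ± 19.0, ZNF219, a partner of SOX9 in cartilage, at 75.5 ± 16.1, ZNF24, a repressor of VEGF, at 64.4 ± 7.84, ZNF207 at 51.0 ± 7.77 and ZNF664 at 44.9 ± 6.60 CPM. Each neighbour in this order from ZNF768 down, and likewise ZNF106 and ZNF592, overlapped within 1 SD. With these 5, 49 members lay between 10 and 100 CPM, 129 between 1 and 10 and 8 under 1, and the median of all members was 4.50 CPM. The lowest were ZNF304 at 0.650 ± 0.181, ZNF467 at 0.719 ± 0.228, ZNF268 at 0.763 ± 0.219, ZNF624 at 0.767 ± 0.250 and ZNF566 at 0.799 ± 0.204 CPM, which overlapped each other within 1 SD.

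**Figure D1:**
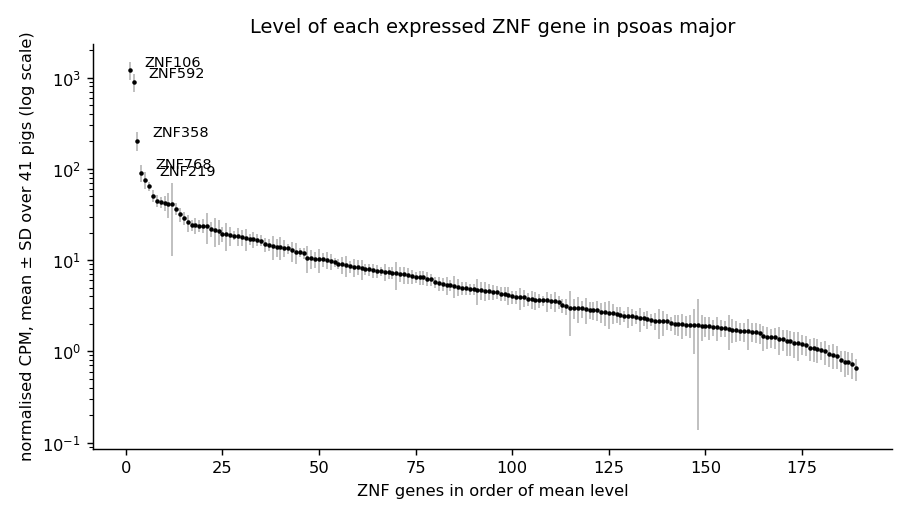
Mean normalised CPM of each of the 189 members on a log axis, in falling order, with bars of 1 SD over 41 pigs. ZNF106 and ZNF592 stand at 1201 and 902 CPM, far above the median of 4.50.

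The coefficient of variation over 41 pigs had a median of 21.9% and ran from 10.8% in ZNF655 to 93.0% in ZNF385B. ZNF385A, at 73.0%, was the only other member above 60%, and both were singled out after their values were seen. Among the 95 members between the lower and the upper quartile of level, from 2.01 to 10.4 CPM, the median was 19.7%, and among 4102 other genes in that range it was 25.1%.

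The rule's threshold cut through a continuum. ZNF175 was just inside, with 5 to 48 counts (median 28), and ZNF112, with 6 to 40 counts, and ZNF304, with 6 to 34, were the next. Just outside were ZNF658 with 4 to 41 counts (median 27), ZNF446 with 4 to 34 and ZNF180 with 4 to 36. Of the 54 ZNF genes left out, 28 had no count in at least 1 pig and 2 had none in any pig.

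A position in RefSeq for Sscrofa11.1 was found by symbol for 167 members. Chromosome 6 carried 46 of them and chromosome 3 carried 26. For 15 members the pairs counted with each strand setting summed to more than 1.1 times the unstranded count used here, since unstranded counting sets aside pairs that touch a gene on the other strand. Among the genes named below these are ZNF7, ZNF583, ZNF672, ZNF473, ZNF513 and ZNF740, and their levels are uncertain to that extent. Reads shared by near-identical ZNF copies are likewise not counted on any of them by a counter of uniquely mapped pairs.

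The breeds were compared in a single model over all genes that also held RIN, age, FCR and batch. The breed difference with the smallest p among the members was in ZNF251 on chromosome 4 (186689 to 193100). Its level in Duroc ran from 16.8 to 25.6 CPM with a median of 19.0, and in Landrace from 8.67 to 17.7 with a median of 11.4. All but 1 of the 28 Landrace pigs, 27, lay below the lowest Duroc pig. The log2 difference, Landrace minus Duroc, was -0.69 ± 0.09 (SE; edgeR FDR = 2.82e-06).

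ZNF251 was lower in Landrace within each batch that held both breeds, with no overlap. The medians were 17.1 in 3 Duroc and 10.2 CPM in 12 Landrace pigs of batch 2, and 20.3 in 4 Duroc and 13.9 CPM in 7 Landrace pigs of batch 5. Fits within batches 2 and 3 and within batches 4 and 5 gave log2 differences of -0.75 and -0.71. These subset fits held RIN, breed and batch, but not age or FCR.

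Its neighbour ZNF7, 27.5 kb away between 159217 and 169571, went the other way. ZNF7 ran from 5.27 to 8.98 CPM (median 7.10) in Duroc and from 6.51 to 9.75 (median 8.40) in Landrace. The ranges overlapped, with 9 Landrace pigs above the highest Duroc pig. The log2 difference was 0.43 ± 0.08 (edgeR FDR = 3.16e-04).

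ZNF75D on chromosome X (110890310 to 110904067) was also higher in Landrace. It ran from 12.5 to 17.6 CPM (median 15.2) in Duroc and from 15.0 to 23.1 (median 17.7) in Landrace, with a log2 difference of 0.42 ± 0.07 (edgeR FDR = 6.72e-05). In that gene 15 of 28 Landrace pigs exceeded every Duroc pig.

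ZNF326, a part of the DBIRD complex that couples elongation by RNA polymerase II to splicing, ran from 18.3 to 31.8 CPM (median 25.6) in Duroc and from 23.01 to 42.0 (median 31.0) in Landrace. Its log2 difference was 0.49 ± 0.09 (edgeR FDR = 8.39e-05). ZNF704 ran at a low level from 0.945 to 1.85 CPM (median 1.67) in Duroc and from 1.44 to 4.33 (median 2.15) in Landrace. The ranges overlapped, with 20 of 28 Landrace pigs above every Duroc pig, and the log2 difference was 0.73 ± 0.18 (edgeR FDR = 0.00408).

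The other members with the smallest p among those higher in Landrace were ZNF277, ZNF581, ZNF821 and ZNF583, with log2 differences of 0.50, 0.76, 0.46 and 0.80. Among those lower in Landrace, ZNF827, which recruits a deacetylase complex to telomeres, ran from 1.13 to 3.86 CPM in Duroc and from 0.803 to 3.61 in Landrace, a log2 difference of -0.89 ± 0.21 (edgeR FDR = 0.00247). ZNF287, ZNF672, ZNF467, ZNF436, ZNF473 and ZNF438 followed, with log2 differences between -0.72 and -0.36. The ranges of the breeds overlapped in all of these. ZNF287 was not called with age left out (-0.33). In batches 2 and 3 alone, fitted without age and FCR, its difference was 0.03. Its medians in batch 2 were 0.995 CPM in Duroc and 1.04 in Landrace. ZNF821, ZNF583, ZNF672, ZNF467, ZNF436, ZNF473 and ZNF438 kept their sign in batches 2 and 3 alone and in batches 4 and 5 alone. They were called in neither subset. Fewer pigs entered these subset fits, and age and FCR were not in their model. ZNF326, ZNF277 and ZNF581 were not called in batches 2 and 3 alone (0.23, 0.24 and 0.29), nor was ZNF287 in batches 4 and 5 alone (-0.59). ZNF473 was also lost with age left out (-0.36), and ZNF287, ZNF467 and ZNF438 with breed and batch only (-0.32, -0.29 and -0.13).

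**Figure D2:**
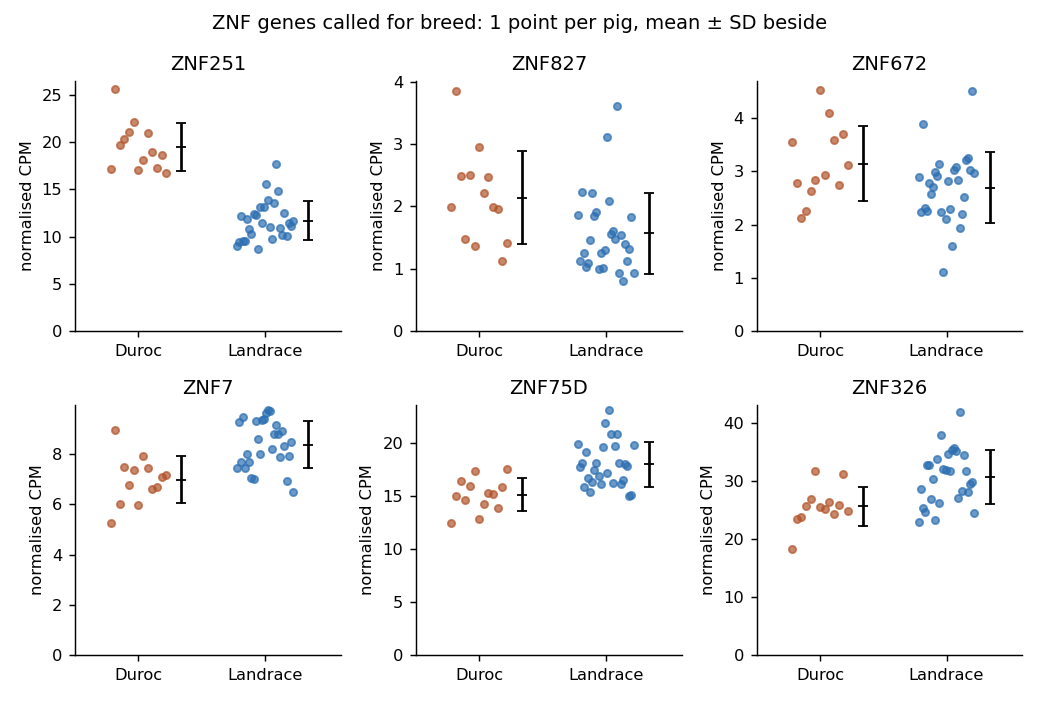
Normalised CPM of 6 members called for breed, 1 point per pig for 13 Duroc and 28 Landrace pigs, with the mean and SD beside each group. ZNF251 is the only one of the 6 in which nearly all Landrace pigs, 27 of 28, lie below every Duroc pig.

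In all, 47 members passed an FDR of 0.1 for breed, 24.9% of the 189, against a background of 33.1% of the 11146 genes tested. Of these 33 were higher in Landrace, or 17.5% of members beside 15.6% of all genes, and 14 were lower, or 7.41% beside 17.5%. The median log2 difference was 0.06 over members and -0.002 over all genes. The split turned on the scaling: with library size alone 8 members were higher and 31 lower (20.6% called, beside 36.9% of all genes). As shares these were 4.23% higher and 16.4% lower, beside 4.82% and 32.1% of all genes. The median of all genes moved there to -0.18 and that of the members to -0.12, so the members stayed 0.06 above all genes. No member had ranges that did not overlap between the breeds, where 0.0897% of all genes tested did.

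**Figure D3:**
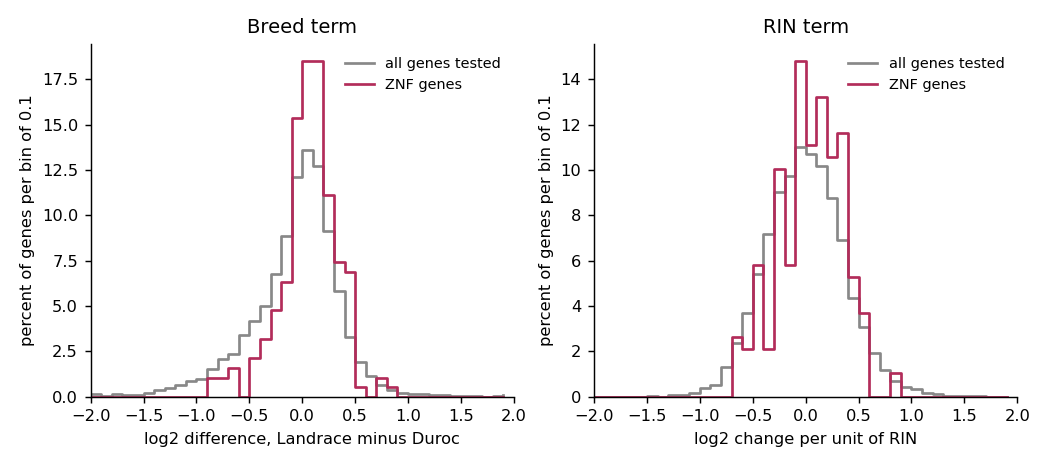
Share of members and of all 11146 genes tested per bin of 0.1 in the log2 breed difference (left) and in the log2 change per unit of RIN (right), with values past 2 placed in the outer bins. The members' median is 0.06 in both panels, and no member lies below -0.89 in the breed panel.

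Cell type markers differed between the breeds beside these genes. All 4 endothelial markers tested (PECAM1, CDH5, KDR, TEK) were lower in Landrace, with a summed level of 53.5 to 159 CPM in Duroc and 29.0 to 136 in Landrace. All 4 fast fibre markers tested were higher, with sums of 21683 to 50051 and 16883 to 69739 CPM. The calls were 1 of 5 slow fibre markers, 2 of 3 adipocyte, 2 of 5 fibroblast, 1 of 7 leukocyte and 1 of 2 satellite cell markers, all lower in Landrace. No list had a marker at 0 in every pig. The part of cell makeup in the breed differences was not tested, and in such bulk tissue fewer cells of a type and less RNA per cell cannot be told apart.

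More members were called for RIN than for breed. ZNF106 rose by 0.58 ± 0.09 log2 units per unit of RIN (edgeR FDR = 5.11e-06). In the 6 pigs of RIN under 7.5 it ran from 448 to 1228 CPM (median 851), in the 19 pigs of RIN 7.5 to 8.1 from 972 to 1562 (median 1111) and in the 16 pigs of RIN 8.2 and over from 999 to 1669 (median 1395). The classes overlapped, and the 2 lowest pigs were both under RIN 7.5. Of the 6 pigs under RIN 7.5, 5 were in batch 5, so these classes also set batch 5 against the others. Within batch 5, ZNF106 had a median of 909 CPM in these 5 pigs and of 1140 in the other 6.

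The other members with the smallest p among those rising were ZNF664, ZNF318, known from alternative splicing in B cells, ZNF609, ZNF507 and ZNF2. Their slopes lay between 0.38 and 0.59. ZNF507 had a median of 6.15 CPM under RIN 7.5 and of 10.7 at 8.2 and over, with no overlap between these classes, since the highest of the first was 8.82 and the lowest of the other 9.00. Within batch 5 it ran from 4.85 to 8.82 CPM under RIN 7.5 and from 7.71 to 9.94 above, with overlap.

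ZNF205 fell most clearly, by 0.61 log2 units per unit of RIN (SE 0.09; edgeR FDR = 3.63e-06). It ran from 25.5 to 39.98 CPM (median 32.4) under RIN 7.5, and from 14.7 to 23.7 (median 18.3) at 8.2 and over, again without overlap, and within batch 5 from 25.5 to 39.98 and from 13.04 to 23.04 CPM below and above RIN 7.5. ZNF580 went from a median of 10.5 to 5.96 CPM and ZNF358 from 293 to 179 CPM between the same classes. ZNF511, ZNF513 and ZNF618 also fell, with slopes of -0.61, -0.46 and -0.69.

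**Figure D4:**
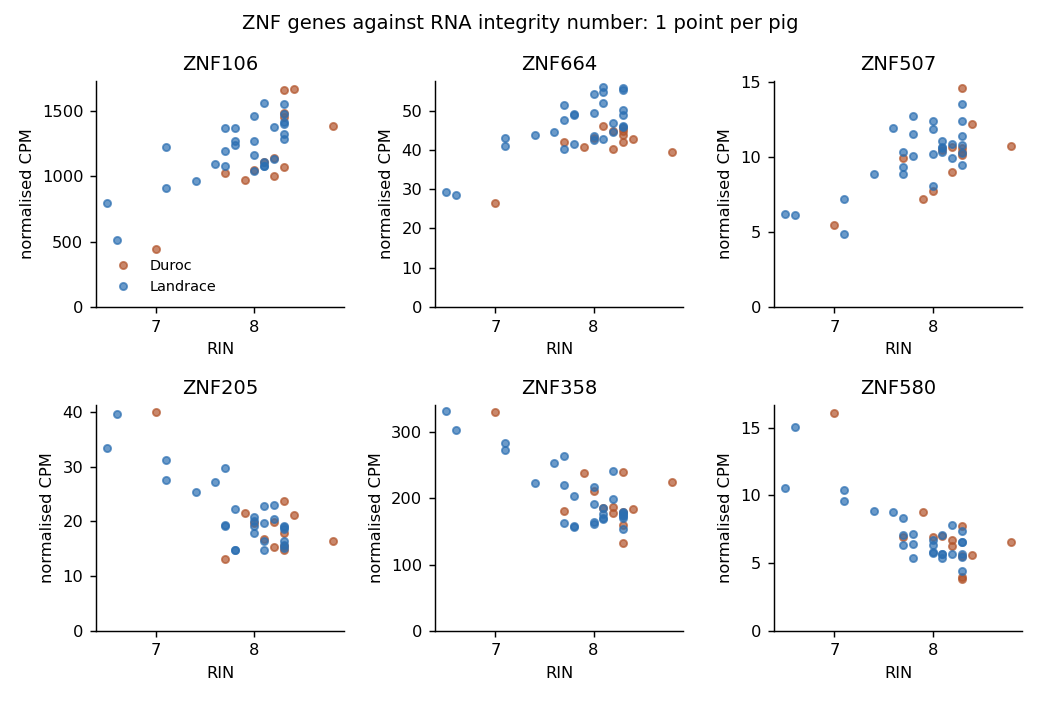
Normalised CPM against RIN for 3 members that rose and 3 that fell with RIN, 1 point per pig, coloured by breed. ZNF106 has medians of 851, 1111 and 1395 CPM at RIN under 7.5, 7.5 to 8.1, and 8.2 and over.

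In total 99 members were called for RIN, 52.4%, beside 51.8% of all genes: 60 rose, with a background of 23.9%, and 39 fell, with a background of 27.9%. The median slope was 0.06 over members and -0.01 over all genes. With library size alone 126 rose and 11 fell (72.5% called, beside 63.8%). These were 66.7% and 5.82% of members, beside 55.8% and 7.92% of all genes, with median slopes of 0.36 over members and 0.30 over all genes. Without the 2 Landrace pigs of RIN below 7 the count was 56 (29.6%, beside 35.6% of all genes), and without the 2 libraries with the fewest counts it was 63 (33.3%, beside 36.6%). With the share of read pairs outside genes in the model it was 31 (16.4%, beside 19.3%). In the Landrace pigs alone 73 were called (38.6%, beside 42.5%). In the 13 Duroc pigs alone edgeR called 0 members and 0% of all genes, with 20 members (10.6%, beside 16.8%) at an unadjusted p under 0.05; the slopes of all 12 named genes kept their sign in Duroc.

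Members that fell with RIN spanned less of the genome. The median span from RefSeq was 12.8 kb for 33 that fell, 26.2 kb for 54 that rose and 22.8 kb for 80 that were not called. Over all genes with a span the medians were 14.7, 55.7 and 32.6 kb in the same order. Among the muscle markers, 5 of 5 slow fibre and 3 of 4 fast fibre markers fell with RIN, and the fourth fast fibre marker, ACTN3, rose by 0.41 log2 units per unit. Of the other lists 2 of 5 fibroblast markers rose (PDGFRA and LUM, by 1.62 and 1.06), 2 of 7 leukocyte markers fell (CD3E and CORO1A, with slopes of -0.67 and -0.53), and no adipocyte, endothelial or satellite cell marker was called. Their part in the members' slopes was not tested. Of the 47 members called for breed 20 were also called for RIN, or 42.6% of the first and 20.2% of the second list, where these shares were 50.3% and 32.2% over all genes. The 63 members called for neither were 33.3%, beside 31.7% of all genes.

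Age called 1 member, or 0.529%, against 1.76% of all genes. ZNF287 rose by 0.56 ± 0.14 log2 units per 10 days (edgeR FDR = 0.0689), at a mean of 1.05 CPM. The call was lost with no filter on low counts (edgeR FDR = 0.114) and at an FDR of 0.05, while with batch as a number 8 members were called, 4.23% beside 7.3% of all genes. Next in order rising were ZNF213 (edgeR FDR = 0.114) and ZNF467 (0.178), and falling ZNF326 (0.107), ZNF821 (0.156) and ZNF596 (0.171), which did not pass. Age and breed were linked in these pigs: with age left out, the breed difference of ZNF287 went from -0.71 to -0.33 and was no longer called.

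FCR called no member by edgeR, nor any of the 11146 genes. At an unadjusted p under 0.05 there were 14 members, 7.41%, against 8.68% of all genes. DESeq2 and limma also called 0 members, where DESeq2 called 5 of 10765 genes (0.0464%) and limma 0. With library size alone edgeR again called 0 members and 0 genes, but 41 members, 21.7%, had an unadjusted p under 0.05, beside 18.8% of all genes. The slopes were positive for 161 members and negative for 28 there, against 93 and 96 with TMM, and their median was 0.06 over members and 0.06 over all genes. With TMM, the smallest p among members belonged to ZNF596, at 0.12 ± 0.04 log2 units per 0.1 of FCR (edgeR FDR = 0.529). ZNF438, ZNF800 and ZNF236 followed with slopes of 0.13, 0.13 and 0.12, and on the falling side ZNF394, ZNF213, ZNF688 and ZNF786 had slopes of -0.16, -0.18, -0.11 and -0.13. None passed.

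No member had a slope on RIN or on FCR that was called as different between the breeds by edgeR. At an unadjusted p under 0.05 there were 8 members for RIN, beside 4.85% of all genes, and 7 for FCR, beside 5.22%. The smallest p belonged to ZNF740 for RIN, with a difference of -0.62 ± 0.22 (edgeR FDR = 0.942), and to ZNF35 for FCR, with -0.44 ± 0.13 (edgeR FDR = 0.922).

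How far members varied together turned on the scaling. Over 41 pigs and with TMM scaling the 17766 pairs had a median Pearson's r of 0.038 on log2 CPM, and of 0.024 once the model's terms were removed, where 57937230 pairs of the 10765 genes with at least 5 counts in every pig had -0.0048 and -0.0050. These are descriptions, since all pairs share the same pigs, libraries and scaling. With library size alone the members' median r was 0.34 as measured and 0.18 adjusted, beside 0.26 and 0.13 over all pairs of genes.

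Some pairs did move closely. After adjustment ZNF598 and ZNF865 had r = 0.81, ZNF16 and ZNF48 0.81, ZNF384 and ZNF853 0.80, ZNF205 and ZNF444 0.79, and ZNF219 and ZNF524 0.79. At the other end stood ZNF197 with ZNF688 at -0.72 and ZNF219 with ZNF260 at -0.71. The members with the highest median r to the rest were ZNF248 (0.15), ZNF197 (0.13) and ZNF638, a cofactor in fat cell formation (0.12).

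Close neighbours on a chromosome had higher correlations than distant members, given here as a description. For 131 pairs of 87 genes whose starts lay within 500 kb, the median adjusted r was 0.17 and 25.2% of pairs were negative. For 1540 pairs further apart on one chromosome it was 0.014, and for 12190 pairs on different chromosomes 0.021. The highest among neighbours were ZNF524 with ZNF865 (5.25 kb apart, r = 0.78) and ZNF444 with ZNF787 (35.6 kb, r = 0.76), while ZNF251 and ZNF7 had r = 0.085.

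**Figure D5:**
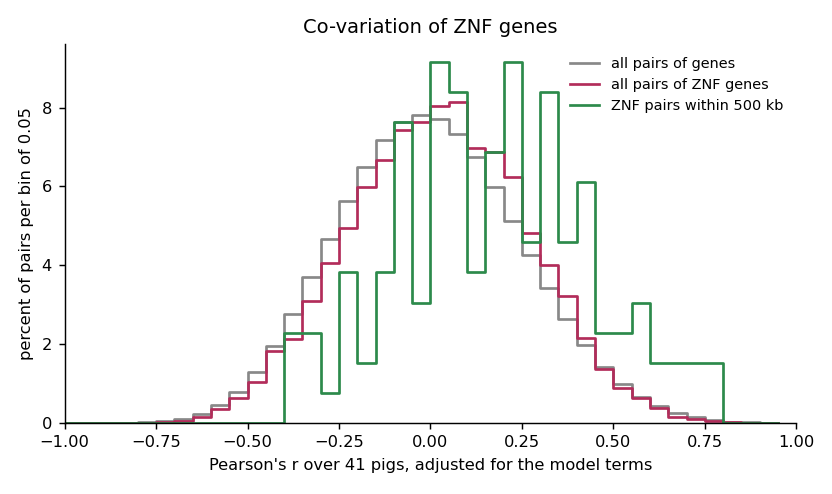
Pearson's r over 41 pigs after removal of the model's terms, as the percent of pairs per bin of 0.05, for all pairs of genes, all pairs of members and the 131 pairs of members within 500 kb. The neighbours sit to the right, with a median of 0.17 against 0.024 for all pairs of members.

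The first principal component held 23.7% of the members' variance, beside 24.8% over all genes, and 114 members weighed with it and 75 against it. It followed RIN with Pearson's r of 0.81 and Spearman's rho of 0.66 over 41 pigs, and r was 0.72 without the 2 pigs farthest from the median RIN. Within batches 2, 3 and 5 (15, 9 and 11 pigs) r was 0.81, 0.68 and 0.87. Its r with the count on genes was 0.84, with rho of 0.57, and 0.67 without the 2 farthest pigs. With the share of read pairs outside genes r was -0.75 and rho -0.40, with r of -0.45 without the 2 farthest pigs and of -0.77, 0.31 and -0.93 within batches 2, 3 and 5. The first component thus moved with RIN, depth and that share together, and these cannot be told apart here. With FCR r was 0.08, or 0.45 in Duroc and -0.10 in Landrace.

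The summed count of members was 4285 ± 802 per 1000000 counts on genes in Duroc and 3968 ± 679 in Landrace, a difference of less than 1 SD. It had r = 0.81 and rho = 0.71 with RIN, r = 0.73 without the 2 farthest pigs, and r of 0.77, 0.36 and 0.87 within batches 2, 3 and 5. ZNF106 and ZNF592 weigh heavily here: without them r was 0.68, rho 0.52, r without the 2 farthest pigs 0.49, and r within those batches 0.75, 0.20 and 0.74. The mean log2 CPM, in which each member counts alike, had r = 0.18 and rho = 0.12 with RIN, and r = -0.050 without the 2 farthest pigs. Its r was 0.59, 0.20 and 0.065 within batches 2, 3 and 5, and 0.23 in Duroc and 0.44 in Landrace. With FCR the summed count had r = 0.0059 and rho = -0.065, and the mean log2 CPM had r = 0.37 and rho = 0.29, with r of 0.50 in Duroc, -0.13 in Landrace and 0.22 without the 2 farthest pigs. With age the summed count had r = -0.27 and rho = -0.36, and the mean log2 CPM had r = 0.41 and rho = 0.36. For the mean log2 CPM, r with age was 0.60, 0.17 and 0.76 within batches 2, 3 and 5. It was 0.13 in Duroc and 0.23 in Landrace. No p is attached to these sums, which the choice of members shaped.

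Of 47 ZNF genes listed for a known role, 38 were members. For breed 10 of them were higher in Landrace and 2 lower, with a median log2 difference of 0.13, and for RIN 18 rose and 5 fell, with a median slope of 0.18. As shares these are 26.3% and 5.26% for breed beside 15.6% and 17.5% of all genes, and 47.4% and 13.2% for RIN beside 23.9% and 27.9%. Besides ZNF106, ZNF318, ZNF326, ZNF277, ZNF609 and ZNF827, described above, ZNF207 rose with RIN by 0.18 and ZNF219 fell by 0.26 log2 units per unit. ZNF24 rose by 0.15.

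The machinery that KRAB proteins call on was also measured. Of 24 such genes tested, 7 were higher and 2 lower in Landrace, 37.5% in all beside 33.1% of all genes, and 9 rose and 8 fell with RIN, 70.8% beside 51.8%. TRIM28, the KRAB corepressor, had a log2 breed difference of 0.23 (edgeR FDR = 0.0824) and fell with RIN by 0.40 log2 units per unit. SETDB1, the methyltransferase it recruits, rose with RIN by 0.67 and was not called for breed (0.17, edgeR FDR = 0.166). DNMT1, the maintenance DNA methyltransferase, was lower in Landrace by a log2 difference of -0.47 (edgeR FDR = 0.00101).

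Other zinc finger families were smaller. Of 26 ZBTB genes 7 were called for breed and 14 for RIN (26.9% and 53.8%), of 11 ZFP genes 5 and 5 (45.5% each), of 13 KLF genes 4 and 9 (30.8% and 69.2%), and of 8 ZSCAN and ZKSCAN genes tested 1 and 6 (12.5% for breed), beside 33.1% and 51.8% of all genes. The families were not tested against the members. Their median adjusted r among themselves lay between 0.025 in KLF and 0.068 in ZBTB.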

How the data were processed

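RNA of 41 pigs was sequenced as read pairs. Per the labels and the methods, the authors trimmed reads with Trimmomatic 0.39, aligned them with STAR 2.7.1a to Sscrofa11.1 with an Ensembl annotation, and deposited raw read pair counts per gene and pig for 3 strand settings; the unstranded counts were used. Members and lists were chosen with earlier results of these data known. Genes kept by filterByExpr of edgeR 4.0.16 (11146, with all 189 members) were fitted by its quasi-likelihood test with TMM scaling on RIN, age, FCR, breed and batch as a factor. P-values were adjusted by Benjamini-Hochberg over all genes, with a threshold of 0.1. SE is the log2 coefficient divided by the root of F. Log2 CPM for correlations used a prior count of 2. The named genes were those of highest and lowest level, of smallest p per term and direction, of most extreme pair correlation and those next to the count threshold. A coding length for levels per length was not used here. Alternatives included DESeq2 1.42.0 and limma 3.58.1. Tested on simulated data, edgeR and limma kept false calls near the nominal rate. DESeq2 made false calls at a rate above its nominal one in every draw, so its counts may hold more false calls than its threshold states. The simulation changed genes by breed only and drew genes independently with a common dispersion. Only the breed term was tested in it, so it does not cover the RIN, age and FCR terms. Positions are from RefSeq for Sscrofa11.1, matched by symbol.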

Additional observations from a re-analysis of the deposited data

How the results depend on the processing

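The count of members called for breed, 47, was 23 in batches 4 and 5 alone and 12 in batches 2 and 3 alone, where fewer pigs entered (12.2% beside 19.2% of all genes, and 6.35% beside 12.8%). Age and FCR were also left out of the model in both subsets. Those higher in Landrace, 33, became 19 and 10 there, and 8 with library size only, or 10.1%, 5.29% and 4.23% beside 9.27%, 5.50% and 4.82% of all genes; those lower, 14, became 4 and 2 there, 31 with library size only, 9 with age left out and 8 with breed and batch only, or 2.12%, 1.06%, 16.4%, 4.76% and 4.23% beside 9.98%, 7.26%, 32.1%, 14.7% and 13.8%. The RIN count, 99, became 56 without the 2 pigs of RIN below 7, 0 in Duroc alone and, under alternatives chosen after seeing the data, 31 with the share of read pairs outside genes in the model and 63 without the 2 libraries with the fewest counts. Its rising part, 60, became 29, 0, 17 and 37 in that order and 126 with library size only. As shares of members, 31.7% became 15.3%, 0%, 8.99%, 19.6% and 66.7%. Of all genes, 23.9% became 15.5%, 0%, 7.29%, 16.3% and 55.8%. The falling part of the RIN count, 39, became 0 in Duroc alone and 14 with the share outside genes. It became 11 with library size only and 23 with no filter on low counts. As shares of members, 20.6% became 0%, 7.41%, 5.82% and 12.2%. Of all genes, 27.9% became 0%, 12%, 7.92% and 14.2%. For age, 1 call became 0 with no filter or at an FDR of 0.05, 2 with RLE factors, limma, without the pigs of RIN below 7, with the share outside genes or without the 2 libraries, 4 with DESeq2 and 8 with batch as a number. The share of all genes called for age was 0.489% with no filter, 0.305% at an FDR of 0.05, 1.99% to 2.56% where 2 members were called, 5.16% with DESeq2 (2.16% of members) and 7.3% with batch as a number (4.23% of members). FCR and both interactions called 0 members under every alternative run. Over all genes, FCR called 5 with DESeq2 (0.0464%) and 1 with the share outside genes in the model (0.00897%). The median pair correlation, 0.038, was 0.34 with library size only, 0.034 as Spearman's rho, 0.026 in Landrace and 0.047 over members of at least 100 mean counts; adjusted, 0.024 became 0.18, 0.018 in Landrace, 0.042 and, with RIN alone, 0.035. The r of the summed level with RIN, 0.81, was 0.57 with TMM sizes, 0.71 for the geometric mean by library size, 0.73 without the pigs of RIN below 7 and, as alternatives chosen after seeing the data, 0.68 without ZNF106 and ZNF592 and 0.18 for the mean log2 CPM with TMM. The breed difference of ZNF287 reversed to 0.03 in batches 2 and 3, where age and FCR were also left out of the model. Of 568 values of 44 named results under alternatives, 519 kept their direction and side of the threshold, 38 were no longer called and 10 became called. Where no construction is named, the cause was not tested. DESeq2 counts carry more false calls than their nominal rate. Members near 1 CPM rest on few counts (5 to 48 for ZNF175), which limits their precision. No paired analysis was possible because the replicate numbers only follow accession order.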
